A study of Mus musculus with 19 samples.

Results

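The contractile and smooth muscle genes described here are 37 named genes of the actin and myosin contractile apparatus, its calcium and phosphatase control, its anchoring structures and its transcriptional regulators, out of 20660 genes that could be named on the array. They were listed by name, with earlier results of these data known, and each is represented by its brightest probe. All 37 had a probe, 60 probes in all, and all 37 were among the 19723 genes tested. The samples are fibroblasts grown out of 7 organs of adult mice aged 8 to 10 weeks: gonad, heart, liver, lung and tail with 3 samples each, and kidney and skin with 2 each. Chopped tissue was digested with trypsin or collagenase and the cells were kept for 5 days on dishes in medium with 10% serum, and no genotype, strain, sex or treatment separates the groups in the labels. Which gonad was used is not given in the labels, nor is whether each replicate stems from its own animal, and the p-values therefore rest on the spread between these samples alone. For lung, replicates 1 and 3 have scanner files here, so 18 arrays enter the tests.

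Smooth muscle contracts when calcium and calmodulin activate myosin light chain kinase, which phosphorylates the light chains and lets myosin pull on actin filaments, and myosin phosphatase reverses the step. Serum response factor switches on many genes of this apparatus by binding CArG boxes, and myocardin and its relatives act as its coactivators. Fibroblasts on stiff plastic in serum commonly acquire smooth muscle actin and its partners, the state called the myofibroblast.

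A level is the log2 spot intensity less the 75th percentile of its array, so a level of 0 is that percentile, and values of a gene are given in the order of replicates 1, 2 and 3 (1 and 3 for lung). A gene is called in an organ when limma gives an adjusted p under 0.05 and a difference of at least 1 log2 between the organ's mean and the mean of the other organs. Dark control spots read above the scanner software's limit on 5 arrays (gonad 3, heart 1, kidney 1, kidney 2 and tail 2), called the high-background arrays below. The raw signal of their median spot lay between 213 and 1985, and on the 13 other arrays between 63 and 130.5; 84.9% to 96.6% of their probes were well above background, against 51.2% to 77.2% elsewhere. Both kidney arrays are among them, so differences of kidney and high background cannot be told apart, and each called difference of a member from the other organs is given also on the 13 arrays, as organ against 5 others. All 15 fibroblast markers tested were above background on every array but those of kidney, where 14 of 15 were. Presence says little on the kidney arrays, where 96.6% and 92.5% of probes were well above background. In kidney 14 of the 15 were called lower (42.4% of all genes) and 13 of 14 epithelial markers higher (35.5% of all genes). These counts too cannot be told apart from high background. The arrays hold RNA of whole cultures, in which fewer cells of a type and less RNA per cell cannot be told apart.

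Promoter sequence was set beside the 7 members that were higher in gonad and lower in heart (Actc1, Actg2, Cnn1, Myh11, Mylk, Des and Ldb3), because the CArG box is the element that the muscle gene regulators among the members use. The RefSeq promoter table (build GRCm38.p6) held a window for 31 of the 37 members and for 5 of these 7. A CArG box was searched as the letters CC, then 6 bases that are each A or T, then GG, a pattern that reads the same way on both strands. It was present in 8 of the 31 members with a window, and in 9 of their 36 windows (25.0%), against 535 of all 32851 windows (1.63%). Near matches, in which 1 of the 6 inner bases is C or G, were in 19.4% of the member windows and 8.5% of all windows. Acta2 and Actc1 were among the members with near matches, which are not counted as boxes here and are not in capitals below. Of the 5 genes with the gonad and heart pattern 2 held a box, Actc1 and Ldb3, and of the 26 other members 6 did (Acta1, Cnn2, Myl6, Myl9, Srf and Vcl). The 4 stretches shown are the 250 bases before 1 transcript start of each gene in that table, 5′ to 3′ on the gene's strand, with the CArG box in capitals, and that of Cnn1 is its first 218 bases because the annotated gene begins there; they are Actc1 (chr2:114052876-114053125, minus strand), Ldb3 (chr14:34588682-34588931, minus strand), and Mylk (chr16:34784700-34784949, plus strand) and Cnn1 (chr9:22099003-22099220, plus strand), which followed the same organ pattern and held no such match in this stretch.
Actc1: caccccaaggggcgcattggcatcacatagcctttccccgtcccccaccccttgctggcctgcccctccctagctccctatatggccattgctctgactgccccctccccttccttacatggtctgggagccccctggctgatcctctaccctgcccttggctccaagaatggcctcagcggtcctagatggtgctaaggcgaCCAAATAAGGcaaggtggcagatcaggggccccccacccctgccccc
Ldb3: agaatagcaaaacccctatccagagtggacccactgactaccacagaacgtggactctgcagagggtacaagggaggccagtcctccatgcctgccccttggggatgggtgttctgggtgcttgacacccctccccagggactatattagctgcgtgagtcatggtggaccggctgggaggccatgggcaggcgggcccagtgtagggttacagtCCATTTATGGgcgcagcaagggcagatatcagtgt
Mylk: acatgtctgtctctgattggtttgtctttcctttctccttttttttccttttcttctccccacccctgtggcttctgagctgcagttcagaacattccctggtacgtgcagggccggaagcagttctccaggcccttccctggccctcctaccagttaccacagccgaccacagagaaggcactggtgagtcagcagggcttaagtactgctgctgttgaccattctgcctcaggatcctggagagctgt
Cnn1: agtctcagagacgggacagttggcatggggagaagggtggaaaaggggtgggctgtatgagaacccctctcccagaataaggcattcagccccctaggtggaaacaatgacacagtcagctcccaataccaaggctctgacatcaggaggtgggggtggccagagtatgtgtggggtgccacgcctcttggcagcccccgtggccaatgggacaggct
The stretches of Mylk and Ldb3 lie inside the annotated gene, before a transcript start within it. The box of Actc1 began 47 bases before the transcript start and that of Ldb3 35 bases before the start shown. The table holds a second, overlapping Ldb3 window, in which the same box lies 109 bases before the start, and the count of windows includes both.

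Of the pairs of organs without kidney, gonad and heart had the most members called over the 18 arrays, 16 higher in gonad and 0 lower, where 2.95% and 1.32% of all genes were called. Over the 7 organs, 31 of 37 members passed the F test (limma, adjusted p under 0.05), against 34% of all genes, 30 did so on the 13 arrays, against 47.1%, and 14 did so on the 16 arrays without kidney, against 7.96%. Leaving out 1 array gave 15 (without kidney 1) to 35 (without heart 1) and leaving out kidney 2 gave 19. In gonad 10 members were higher and 1 lower, where 2.12% and 0.816% of all genes were called. In heart 1 was higher and 10 were lower, against 1.36% and 2.39%. Liver had 5 higher and 1 lower (1.21% and 0.608%), lung 2 higher and 0 lower (0.395% and 0.122%; 6 and 1 at an unadjusted p under 0.05 by limma), skin 1 higher and 1 lower (0.73% and 0.659%), and tail 0 higher and 6 lower (4.08% and 2.19%; 2 and 8 at an unadjusted p under 0.05 by limma). Single arrays moved these counts: without gonad 1, or without gonad 2, 4 members were higher and 1 lower in gonad, and without heart 2, 1 was higher and 6 were lower in heart. Without heart 1, which is a high-background array, gonad had 17 higher and 1 lower, liver 9 and 1, lung 6 and 0 and skin 2 and 2. Shares of all genes called are not given here for fits that leave out 1 array, so nothing is read from this rise. Lung had 1 call without lung 1 or without lung 3, and skin 0 calls without either skin array and 1 without any of gonad 1, gonad 2, heart 2, kidney 1, kidney 2, liver 1, liver 3, lung 1 or the tail arrays. Without the 5 arrays the counts were 14 and 1 in gonad (4.18% and 16.6% of all genes), 2 and 14 in heart (3.41% and 4.92%), 8 and 1 in liver (2.25% and 3.26%), 5 and 0 in lung (1.3% and 0.73%), 1 and 5 in skin (19.6% and 3.78%) and 1 and 10 in tail (15.8% and 5.03%).

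The counts in kidney (0 higher and 26 lower) stand beside 35.5% and 42.4% of all genes called, and nothing is read from them. With quantile normalization in place of the 75th percentile, 9 members were called in kidney, 1 higher and 8 lower, and 9 of the 26 members turned in sign. The share of higher genes among all genes called moved from 45.6% to 36.0% with quantile normalization and to 60.4% with scaling to the median of detected probes in kidney, and from 66.5% to 83.4% with quantile normalization in liver.

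The median difference over the 37 members was 1.20 log2 in gonad, where that of all genes tested was -0.06, and -0.94 in heart, where it was -0.11. In liver the medians were 1.00 for the members and 0.12 for all genes, and in lung 0.79 and 0.08. On the 13 arrays these medians were 0.90 and -0.22 in gonad, -1.03 and -0.03 in heart, 0.48 and -0.12 in liver and 0.20 and -0.07 in lung. In skin they were 0.52 and 0.38 over all arrays (-0.05 and 0.24 on the 13) and in tail -0.02 and 0.34 (-0.48 and 0.18 on the 13). With quantile normalization liver stood at 0.53 and 0.14, lung at 0.28 and 0.11 and tail at -0.37 and 0.07, and the skin median of the members turned to -0.06 with quantile normalization, which put all genes at 0.10. The number of members above 0 was 35 of 37 in gonad and 4 of 37 in heart, against 46.8% and 40.6% of all genes. The heatmap of the members by array parts the members by their range over the 13 arrays, with a wide range in the upper block and a narrow one in the lower.

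**Figure D1:**
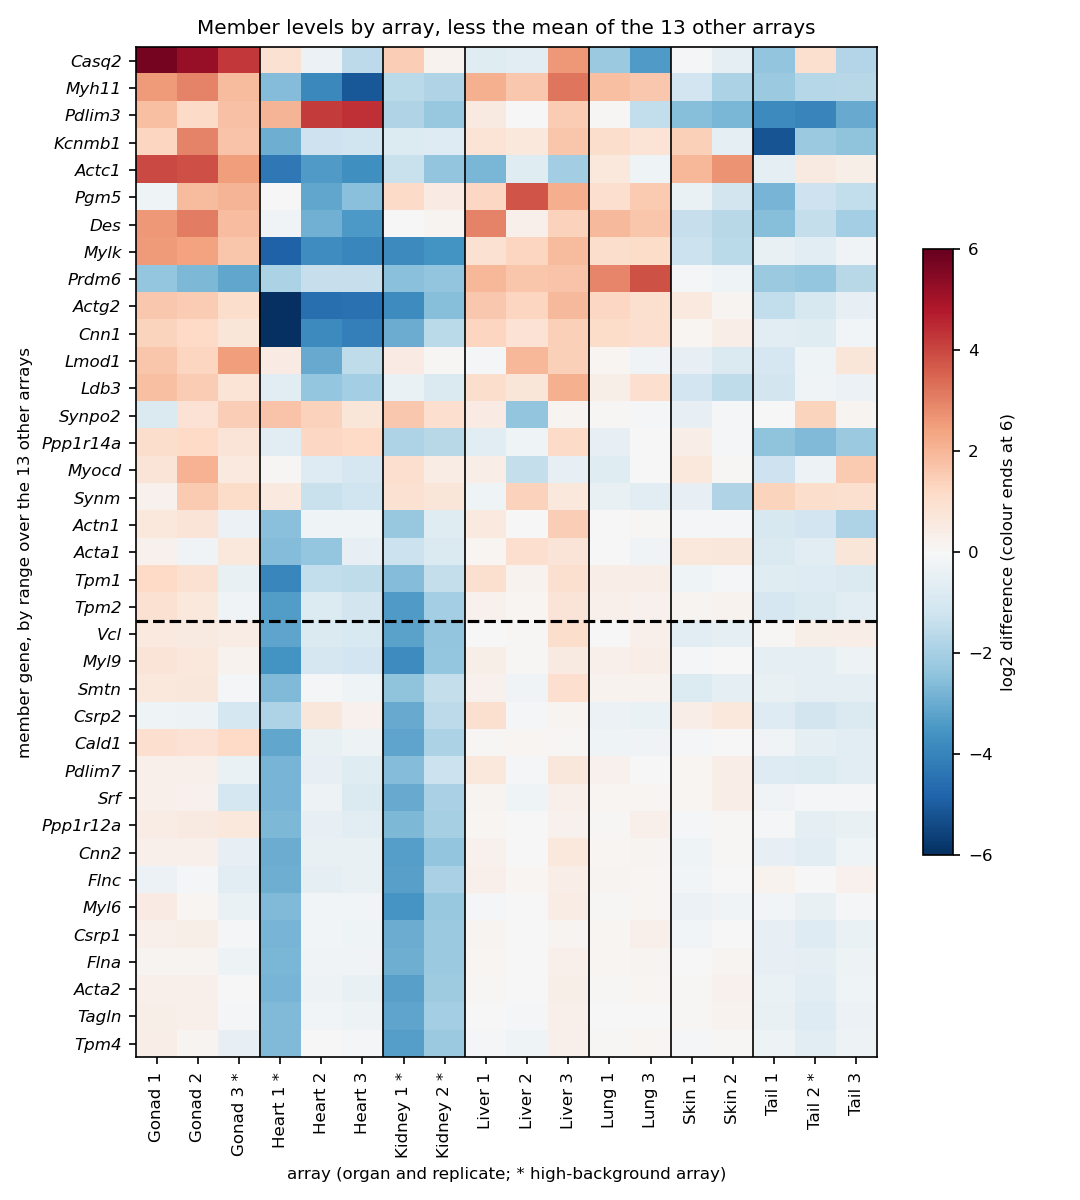
Level of each of the 37 members (rows) on each of the 18 arrays (columns, grouped by organ, high-background arrays starred), as the log2 difference from the gene's mean over the 13 other arrays, in red where higher and blue where lower, with colours ending at 6. Rows are ordered by the range over the 13 arrays, and the dashed line parts the 21 members with a range of at least 2 log2 from the 16 with a smaller one, which are dark blue on heart 1, kidney 1 and kidney 2 and paler elsewhere.

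**Figure D2:**
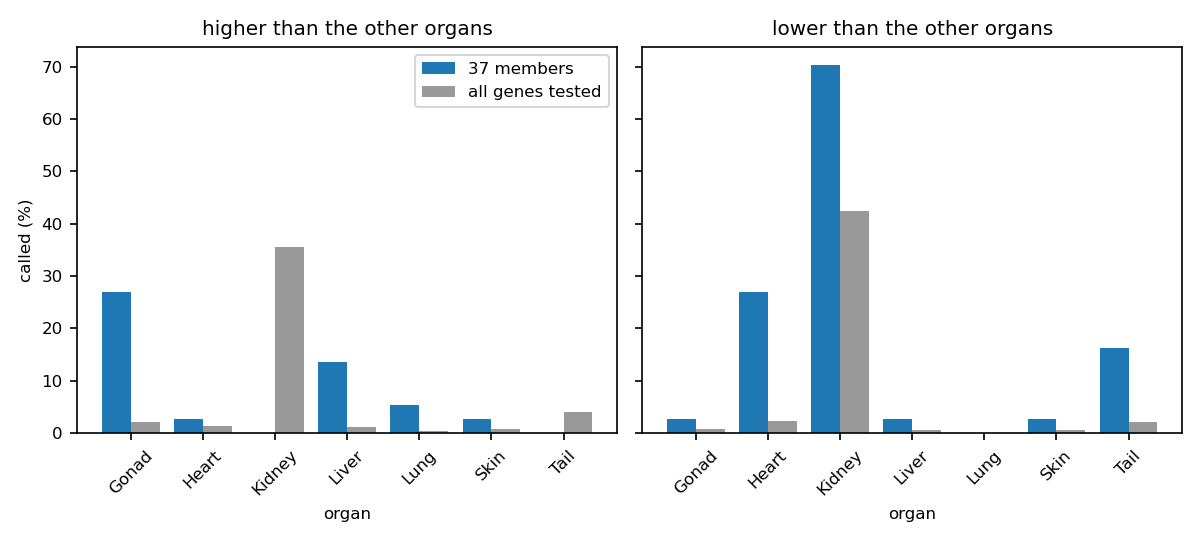
Percent called (vertical axis) among the 37 members (blue bars) and among all 19723 genes tested (grey bars) in each organ against the others, higher on the left and lower on the right, over 18 arrays. The members stand at 27.0% in gonad on the left and 27.0% in heart on the right, where the grey bars are 2.12% and 2.39%; in kidney on the right they stand at 70.3% beside a grey bar of 42.4%.

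Of the actins, enteric smooth muscle actin Actg2 and cardiac actin Actc1 varied widely by organ. Actg2 read 8.54, 8.45 and 7.97 on the gonad arrays, 0.22, 2.42 and 2.45 on heart and 3.16 and 4.37 on kidney. On liver it stood at 8.56, 8.24 and 8.88, on lung at 8.19 and 7.89, on skin at 7.54 and 7.10 and on tail at 5.46, 5.97 and 6.45. The heart arrays were below every other array, the kidney arrays came next and tail lay below the remaining 4 organs. In heart its difference from the other organs was -5.30 ± 0.43 log2 (SE, 39.3-fold, adjusted p = 1.1e-05) or -5.24 ± 0.26 (adjusted p = 1.05e-05) on the 13 arrays. In gonad it was 2.43 ± 0.43 log2 (SE, 5.37-fold, adjusted p = 0.00557) or 2.03 ± 0.26 (adjusted p = 0.00106) on the 13 arrays. This call did not hold without gonad 1 or gonad 2 (adjusted p = 0.0636 and 0.0562). In liver it was 2.71 ± 0.43 log2 (SE, 6.54-fold, adjusted p = 0.00504) or 2.11 ± 0.22 (adjusted p = 0.00192) on the 13 arrays.

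Actc1, the main actin of heart muscle, read 1.22, 1.12 and -0.22 on the gonad arrays, -7.04, -6.13 and -6.40 on heart and -4.07 and -5.09 on kidney. The liver arrays had -5.49, -3.45 and -4.85, those of lung -2.10 and -3.00, of skin -0.77 and -0.06 and of tail -3.35, -2.20 and -2.39. The heart-derived cultures held the lowest levels of this cardiac gene and were not above background on any of the 3 arrays, while gonad 1 and gonad 2 lay above every other array. For a group not above background the fold is a lower bound, taken against the lowest signal among detected probes of each array. The gonad difference was 4.26 ± 0.46 log2 (SE, at least 15.1-fold, adjusted p = 0.000174) or 4.51 ± 0.48 (adjusted p = 0.000545) on the 13 arrays. Heart differed by -4.17 ± 0.46 log2 (SE, at least 4.36-fold, adjusted p = 0.000108) or -4.41 ± 0.48 (adjusted p = 0.000504) on the 13 arrays. In skin, which overlapped with gonad 3, it was 2.95 ± 0.54 log2 (SE, at least 6.09-fold, adjusted p = 0.0144) or 2.61 ± 0.48 (adjusted p = 0.00459) on the 13 arrays. It was no longer called without skin 1 or skin 2 (adjusted p = 0.173 and 0.509). In liver it was -1.93 ± 0.46 log2 (SE, 3.81-fold, adjusted p = 0.0497) or -2.41 ± 0.41 (adjusted p = 0.0112) on the 13 arrays. Of the liver arrays the probe was above background on liver 2 alone, so the size of this liver difference is not a measured one. The call ended without gonad 1, gonad 2, heart 2, heart 3, kidney 1, kidney 2, liver 1, liver 3, lung 1, lung 3, skin 1, skin 2, tail 1, tail 2 or tail 3 (adjusted p = 0.0554 to 0.344), with quantile normalization (0.371), with normexp and quantile normalization (0.175), with dim probes kept (0.0505), with a robust variance trend (0.0904) and with the slide as a block (0.075).

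Acta1, skeletal muscle actin, read 3.85, 3.39 and 4.22 on the gonad arrays, 0.98, 1.26 and 3.09 on heart and 2.28 and 2.71 on kidney. For liver the levels were 3.69, 4.58 and 4.38, for lung 3.59 and 3.36, for skin 4.20 and 4.26 and for tail 2.71, 2.95 and 4.30. Heart 1 and heart 2 were the lowest arrays and heart 3 lay among the others. The heart difference was -1.82 ± 0.43 log2 (SE, 3.52-fold, adjusted p = 0.0276) or -1.63 ± 0.49 (adjusted p = 0.0645) on the 13 arrays. It was not called on the 13 arrays, nor without heart 1, heart 2, kidney 2, lung 1, skin 1 or skin 2 (adjusted p = 0.0504 to 0.192). Acta2, the smooth muscle actin used as the myofibroblast marker, read 9.70, 9.69 and 9.35 on the gonad arrays, 6.63, 9.08 and 8.93 on heart and 6.13 and 7.27 on kidney. Levels in liver were 9.45, 9.39 and 9.72, in lung 9.44 and 9.50, in skin 9.46 and 9.63 and in tail 8.99, 8.77 and 9.16. Over the 13 arrays it stayed within 0.79 log2, between 8.93 and 9.72, and heart 1, kidney 1 and kidney 2 were the arrays more than 1 log2 below that range. It passed the F test (adjusted p = 0.0218) and was called in kidney alone among the organ comparisons, with a gonad difference of 0.84 ± 0.42 log2 and a heart difference of -0.75 ± 0.42 log2.

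**Figure D3:**
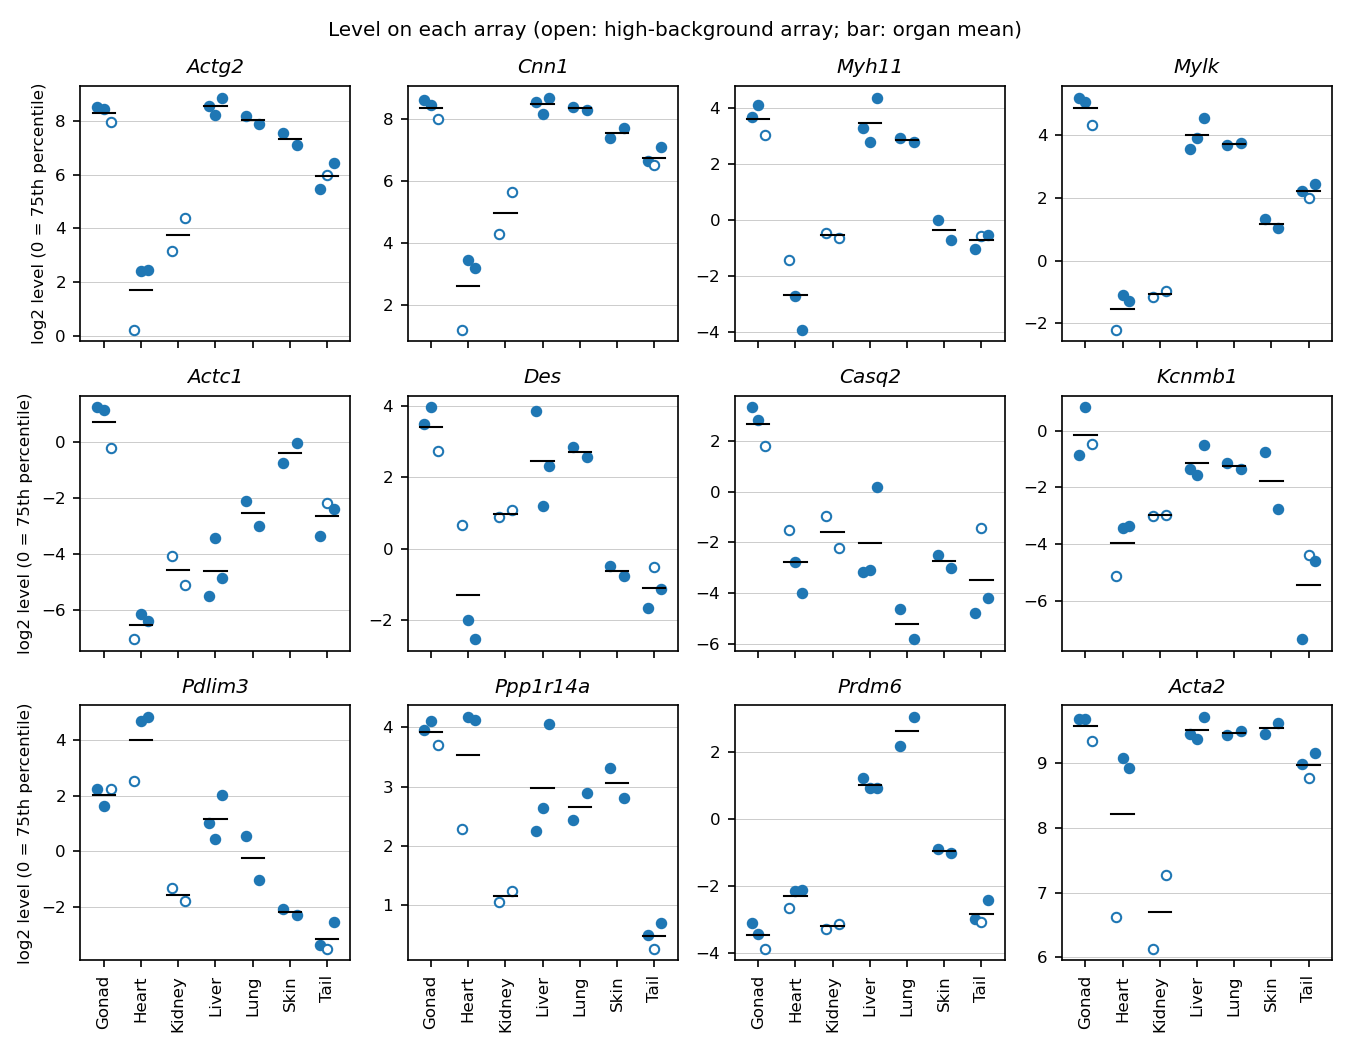
Level of 12 members (panels) on each array by organ, in log2 units above the 75th percentile of the array; filled points are the 13 other arrays, open points the high-background arrays and bars the organ means, and the vertical axes differ between panels. Actg2, Cnn1, Myh11 and Actc1 have their lowest 3 arrays in heart, Casq2 its highest 3 in gonad, Pdlim3 its highest 3 in heart and Prdm6 its highest 2 in lung, whereas Acta2 stands apart only on heart 1 and the kidney arrays.

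Calponin Cnn1, which binds actin and restrains its sliding on myosin, followed Actg2. It read 8.60, 8.45 and 7.99 on the gonad arrays, 1.21, 3.47 and 3.18 on heart and 4.28 and 5.65 on kidney. Its liver levels were 8.55, 8.16 and 8.69, its lung levels 8.38 and 8.30, its skin levels 7.38 and 7.69 and its tail levels 6.63, 6.53 and 7.09. Again the heart arrays were below all others, with kidney and then tail above them. The heart difference was -4.78 ± 0.41 log2 (SE, 27.5-fold, adjusted p = 1.72e-05) or -4.62 ± 0.18 (adjusted p = 3.25e-06) on the 13 arrays. Gonad differed by 1.90 ± 0.41 log2 (SE, 3.73-fold, adjusted p = 0.0209) or 1.62 ± 0.18 (adjusted p = 0.000663) on the 13 arrays. That call was lost without gonad 1 or gonad 2 (adjusted p = 0.184 and 0.15) and without both kidney arrays (0.0533). The liver difference was 2.04 ± 0.41 log2 (SE, 4.10-fold, adjusted p = 0.0212) or 1.55 ± 0.16 (adjusted p = 0.00184) on the 13 arrays. This call did not hold without liver 1, liver 2 or liver 3 (adjusted p = 0.081 to 0.123) and without both kidney arrays (0.0619). Cnn1 and Actg2 showed the same order of organs: liver, gonad, lung, skin, tail, kidney and heart, with no call between neighbours among the first 5 and calls between tail and kidney and between kidney and heart. The place of kidney in this order cannot be told apart from high background. With quantile normalization the kidney difference of Cnn1 from the other organs turned to 0.32 log2, and that of Actg2 stayed below 0 at every setting.

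The other calponin, Cnn2, is broadly expressed in cells that are not muscle and read 6.49, 6.51 and 5.72 on the gonad arrays, 3.24, 5.74 and 5.76 on heart and 2.87 and 3.84 on kidney. Liver gave 6.47, 6.21 and 6.85, lung 6.31 and 6.36, skin 5.95 and 6.24 and tail 5.69, 5.51 and 5.96. Tagln (transgelin or SM22), an actin-binding protein of early smooth muscle, read 9.59, 9.55 and 9.17 on the gonad arrays, 6.60, 9.11 and 8.98 on heart and 6.08 and 7.22 on kidney. On liver it stood at 9.31, 9.21 and 9.56, on lung at 9.27 and 9.30, on skin at 9.32 and 9.47 and on tail at 8.82, 8.50 and 8.91. Both were lowest on kidney 1, then heart 1 and kidney 2, and neither was called in an organ other than kidney. Their ranges over the 13 arrays were 1.16 and 0.77 log2, against 5.50 for Cnn1.

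Caldesmon, Cald1, which inhibits myosin on actin until phosphorylated, read 5.19, 5.03 and 5.35 on the gonad arrays, 1.08, 3.75 and 3.86 on heart and 1.03 and 2.27 on kidney. The liver arrays had 4.26, 4.32 and 4.24, those of lung 3.91 and 3.98, of skin 4.11 and 4.21 and of tail 3.95, 3.65 and 3.52. Its 3 gonad arrays lay above every other array, as did those of 2 other members, Casq2 and Ppp1r12a, where 0.811% of all genes did so. Without the high-background arrays its gonad difference of 1.13 ± 0.13 log2 was called (adjusted p = 0.000757), and with all arrays it was 1.75 ± 0.46 log2 and was not. Lmod1 (leiomodin), which nucleates actin filaments in smooth muscle, read -0.82, -1.19 and 0.01 on the gonad arrays, -1.99, -5.49 and -4.01 on heart and -1.99 and -2.40 on kidney. For liver the levels were -2.60, -0.47 and -1.05, for lung -2.39 and -2.68, for skin -2.98 and -3.36 and for tail -3.49, -2.75 and -1.76. Gonad arrays were high and heart 2 and heart 3 low, with heart 1 among the others, and the gene did not pass the F test (adjusted p = 0.0574). Without the 5 arrays it was called by limma in gonad (1.88 ± 0.60 log2, adjusted p = 0.0454) and heart (-2.61 ± 0.60 log2, adjusted p = 0.0214). Its probe was not above background on heart 2 or heart 3, so the size of that heart difference is not a measured one. Smoothelin, Smtn, ranged from 3.05 to 6.68, did not pass the F test (adjusted p = 0.0642) and was called in kidney alone.

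Of the motor and its light chains, the motor and its kinase had wide ranges and the light chains narrow ones. Myh11, the smooth muscle myosin heavy chain and the most specific marker of mature smooth muscle, read 3.69, 4.12 and 3.06 on the gonad arrays, -1.45, -2.72 and -3.93 on heart and -0.48 and -0.63 on kidney. Levels in liver were 3.30, 2.79 and 4.39, in lung 2.94 and 2.78, in skin 0.01 and -0.72 and in tail -1.06, -0.57 and -0.53. Every gonad, liver and lung array was at 2.78 or above and every other array at 0.01 or below, with the heart arrays lowest. Gonad differed by 3.29 ± 0.44 log2 (SE, 9.75-fold, adjusted p = 0.000857) or 3.53 ± 0.43 (adjusted p = 0.000904) on the 13 arrays. Liver differed by 3.13 ± 0.44 log2 (SE, 8.76-fold, adjusted p = 0.00246) or 3.03 ± 0.36 (adjusted p = 0.00304) on the 13 arrays. In heart it was -4.09 ± 0.44 log2 (SE, 17.1-fold, adjusted p = 0.000102) or -5.15 ± 0.43 (adjusted p = 0.000115) on the 13 arrays. In tail it was -1.78 ± 0.44 log2 (SE, 3.44-fold, adjusted p = 0.0263) or -2.11 ± 0.43 (adjusted p = 0.00685) on the 13 arrays. It was no longer called without skin 1, tail 1, tail 2 or tail 3 (adjusted p = 0.0513 to 0.192).

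Mylk, the myosin light chain kinase, read 5.19, 5.04 and 4.32 on the gonad arrays, -2.20, -1.09 and -1.30 on heart and -1.17 and -0.97 on kidney. Its liver levels were 3.54, 3.92 and 4.54, its lung levels 3.67 and 3.74, its skin levels 1.33 and 1.03 and its tail levels 2.21, 1.98 and 2.42. Heart and kidney arrays were all at -0.97 or below, skin and tail lay between 1.03 and 2.42, and lung, liver and gonad were at 3.54 or above. In gonad its difference was 3.44 ± 0.30 log2 (SE, 10.8-fold, adjusted p = 3.83e-05) or 3.11 ± 0.22 (adjusted p = 0.00013) on the 13 arrays. In heart it was -4.01 ± 0.30 log2 (SE, 16.1-fold, adjusted p = 4.58e-06) or -4.46 ± 0.22 (adjusted p = 1.1e-05) on the 13 arrays. In liver it was 2.44 ± 0.30 log2 (SE, 5.43-fold, adjusted p = 0.00112) or 1.77 ± 0.19 (adjusted p = 0.00212) on the 13 arrays. In lung it was 2.10 ± 0.35 log2 (SE, 4.29-fold, adjusted p = 0.0169) or 1.42 ± 0.22 (adjusted p = 0.0134) on the 13 arrays. The call ended without lung 1 or lung 3 (adjusted p = 0.301 and 0.473), with quantile normalization (0.187), with the slide as a block (0.0524) and without both kidney arrays (0.136).

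The light chain Myl9, the regulatory chain that the kinase phosphorylates in smooth muscle, read 9.69, 9.53 and 9.09 on the gonad arrays, 5.34, 7.88 and 7.77 on heart and 5.15 and 6.56 on kidney. Liver gave 9.25, 8.99 and 9.44, lung 9.22 and 9.28, skin 8.79 and 8.91 and tail 8.35, 8.30 and 8.60. Heart 2 and heart 3 were the lowest of the 13 arrays, and without the high-background arrays heart was called, at -1.26 ± 0.14 log2 (adjusted p = 0.000601), whereas over all arrays the difference of -1.51 ± 0.44 log2 was not called. Myl6, the essential light chain, read 9.69, 9.33 and 8.79 on the gonad arrays, 6.54, 9.05 and 9.05 on heart and 5.65 and 6.91 on kidney. On liver it stood at 9.13, 9.18 and 9.62, on lung at 9.28 and 9.33, on skin at 8.83 and 8.96 and on tail at 9.03, 8.75 and 9.10. It stayed within 0.86 log2 over the 13 arrays and was called in kidney alone.

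Tropomyosins lie along the actin filament and set the access of myosin. Tpm1 read 7.75, 7.44 and 6.09 on the gonad arrays, 2.64, 5.05 and 5.03 on heart and 3.93 and 5.10 on kidney. The liver arrays had 7.48, 6.75 and 7.48, those of lung 6.93 and 6.92, of skin 6.28 and 6.41 and of tail 5.80, 5.78 and 5.67. Heart 1 was the lowest array, followed by kidney 1, heart 3 and heart 2. The heart difference was -2.07 ± 0.48 log2 (SE, 4.20-fold, adjusted p = 0.0235) or -1.73 ± 0.19 (adjusted p = 0.000557) on the 13 arrays. Its 5 probes gave -2.13 to -1.84 log2 in heart for 4 of them and -0.51 for the fifth. Tpm2 read 8.58, 8.31 and 7.44 on the gonad arrays, 4.32, 6.82 and 6.54 on heart and 4.25 and 5.63 on kidney. For liver the levels were 7.90, 7.77 and 8.41, for lung 7.97 and 7.91, for skin 7.83 and 7.86 and for tail 6.66, 6.78 and 7.03. Without the 5 arrays heart was called, at -1.14 ± 0.19 log2 (adjusted p = 0.0042). Tpm4, a form found in many cells that are not muscle, read 8.04, 7.76 and 7.14 on the gonad arrays, 4.97, 7.60 and 7.53 on heart and 4.33 and 5.38 on kidney. Levels in liver were 7.55, 7.37 and 7.90, in lung 7.70 and 7.72, in skin 7.56 and 7.67 and in tail 7.30, 6.93 and 7.31. Its range was 0.73 log2 over the 13 arrays, the smallest of the 37 members there.

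Among intermediate filament genes, desmin (Des), the filament of muscle cells, read 3.49, 3.96 and 2.73 on the gonad arrays, 0.67, -1.98 and -2.53 on heart and 0.89 and 1.07 on kidney. Its liver levels were 3.85, 1.19 and 2.30, its lung levels 2.85 and 2.57, its skin levels -0.49 and -0.76 and its tail levels -1.66, -0.51 and -1.14. Gonad, liver and lung were at 1.19 or above and skin and tail at -0.49 or below, heart 1 and the kidney arrays lay between them, and heart 2 and heart 3 were the lowest arrays. The gonad difference was 2.87 ± 0.60 log2 (SE, 7.31-fold, adjusted p = 0.017) or 3.54 ± 0.53 (adjusted p = 0.00204) on the 13 arrays. That call was lost without gonad 1 or gonad 2 (adjusted p = 0.127 and 0.159). In heart it was -2.58 ± 0.60 log2 (SE, 5.99-fold, adjusted p = 0.0247) or -3.63 ± 0.53 (adjusted p = 0.0023) on the 13 arrays. This call did not hold without heart 2 or heart 3 (adjusted p = 0.182 and 0.223), with quantile normalization (0.0765), with scaling to the median of detected probes (0.0615) and with normexp and quantile normalization (0.0651). In tail it was -2.37 ± 0.60 log2 (SE, 5.18-fold, adjusted p = 0.0279) or -2.60 ± 0.53 (adjusted p = 0.007) on the 13 arrays. It was no longer called without lung 1, skin 1, tail 1, tail 2 or tail 3 (adjusted p = 0.0513 to 0.207).

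Synemin (Synm), which joins desmin filaments to the cell edge, read -0.92, 0.41 and -0.06 on the gonad arrays, -0.58, -2.51 and -2.35 on heart and -0.24 and -0.45 on kidney. Liver gave -1.42, 0.22 and -0.55, lung -1.59 and -1.81, skin -1.66 and -3.00 and tail 0.17, -0.11 and -0.21. Skin 2, heart 2 and heart 3 were lowest, no organ was called over all arrays, and without the 5 arrays tail was higher by 1.44 ± 0.47 log2 (adjusted p = 0.0451). Its 5 probes gave differences of -1.42 to 1.16 log2 in heart, which disagree in sign. For Synpo2, an actin-bundling protein of the Z-disc, a brighter probe was set aside for an outlier spot, and the probe used was dim, above background on 11 arrays and levels from -7.18 to -3.12; the gene did not pass the F test (adjusted p = 0.218).

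Of the linkers between actin and adhesions, Pgm5, a protein of muscle adherens junctions, read -1.71, 0.46 and 0.57 on the gonad arrays, -1.49, -4.58 and -3.95 on heart and -0.31 and -0.97 on kidney. On liver it stood at -0.19, 2.30 and 0.73, on lung at -0.46 and 0.10, on skin at -1.83 and -2.57 and on tail at -4.24, -2.70 and -2.95. Liver 2 was highest, heart 2, tail 1 and heart 3 were lowest, and no organ was called over all arrays. Without the 5 arrays heart differed by -3.13 ± 0.69 log2 (adjusted p = 0.0178), liver by 3.12 ± 0.59 (adjusted p = 0.0163) and tail by -2.33 ± 0.69 (adjusted p = 0.0305). Vinculin (Vcl) read 5.00, 4.94 and 4.83 on the gonad arrays, 1.25, 3.53 and 3.51 on heart and 1.19 and 2.06 on kidney. The liver arrays had 4.45, 4.48 and 5.44, those of lung 4.40 and 4.72, of skin 3.71 and 3.85 and of tail 4.49, 4.78 and 4.80. Skin, heart 2 and heart 3 were the lowest of the 13 arrays, and heart was called without the 5 arrays, at -1.03 ± 0.24 log2 (adjusted p = 0.0246).

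The filamins, which cross-link actin, stayed narrow. Flna read 8.63, 8.64 and 8.16 on the gonad arrays, 5.71, 8.22 and 8.26 on heart and 5.51 and 6.23 on kidney. For liver the levels were 8.56, 8.42 and 8.77, for lung 8.58 and 8.63, for skin 8.45 and 8.61 and for tail 7.97, 7.85 and 8.15. Flnc, the muscle filamin, read 5.24, 5.45 and 4.96 on the gonad arrays, 2.62, 5.04 and 5.13 on heart and 2.33 and 3.61 on kidney. Levels in liver were 5.89, 5.70 and 5.99, in lung 5.76 and 5.68, in skin 5.42 and 5.54 and in tail 5.78, 5.54 and 5.81. Their ranges over the 13 arrays were 0.80 and 0.94 log2, and both were called in kidney alone. Actn1, the alpha-actinin of stress fibres, ranged from 1.55 to 5.51 and did not pass the F test (adjusted p = 0.0678); without the 5 arrays tail was called, at -1.62 ± 0.34 log2 (adjusted p = 0.0078).

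The PDZ and LIM domain proteins hold actin at Z-discs and dense bodies. Pdlim3 was the member called higher in heart over all arrays. It read 2.25, 1.63 and 2.22 on the gonad arrays, 2.52, 4.67 and 4.84 on heart and -1.33 and -1.80 on kidney. Its liver levels were 1.03, 0.46 and 2.01, its lung levels 0.55 and -1.03, its skin levels -2.08 and -2.29 and its tail levels -3.37, -3.51 and -2.55. The heart arrays were above every other array (0.319% of all genes) and the tail arrays below every other, as they were for 1 more member, Ppp1r14a (0.826% of all genes). The heart difference was 4.66 ± 0.48 log2 (SE, 25.4-fold, adjusted p = 7.24e-05) or 5.21 ± 0.46 (adjusted p = 0.00016) on the 13 arrays. Tail differed by -3.68 ± 0.48 log2 (SE, 12.8-fold, adjusted p = 0.00032) or -4.05 ± 0.46 (adjusted p = 0.000435) on the 13 arrays. In gonad it was 2.36 ± 0.48 log2 (SE, 5.14-fold, adjusted p = 0.0154) or 1.83 ± 0.46 (adjusted p = 0.0191) on the 13 arrays. The call ended without gonad 1 or gonad 2 (adjusted p = 0.136 and 0.0632). In skin it was -2.57 ± 0.57 log2 (SE, 5.92-fold, adjusted p = 0.0431) or -3.12 ± 0.46 (adjusted p = 0.00198) on the 13 arrays. That call was lost without gonad 1, gonad 2, heart 2, kidney 1, kidney 2, liver 1, liver 3, lung 1, skin 1, skin 2, tail 1, tail 2 or tail 3 (adjusted p = 0.0514 to 0.737) and with the slide as a block (0.0847).

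Ldb3 (Cypher or ZASP), a Z-disc protein of striated muscle, read 1.53, 1.24 and 0.53 on the gonad arrays, -0.94, -2.60 and -2.33 on heart and -0.70 and -1.13 on kidney. Liver gave 0.75, 0.43 and 1.85, lung 0.06 and 0.70, skin -1.44 and -1.82 and tail -1.40, -0.50 and -0.65. Gonad, liver and lung were above 0 and the other organs below it. The gonad difference was 1.76 ± 0.39 log2 (SE, 3.39-fold, adjusted p = 0.0253) or 2.13 ± 0.35 (adjusted p = 0.00322) on the 13 arrays. This call did not hold without gonad 1, gonad 2 or skin 2 (adjusted p = 0.0529 to 0.243), with scaling to the median of detected probes (0.0701) and with the mean of the gene's probes (0.0602). The heart difference was -1.81 ± 0.39 log2 (SE, 3.50-fold, adjusted p = 0.0166) or -2.49 ± 0.35 (adjusted p = 0.00203) on the 13 arrays. It was no longer called without heart 2 or heart 3 (adjusted p = 0.149 and 0.128), with scaling to the median of detected probes (0.0511) and with the mean of the gene's probes (0.146). The gene's other probe gave 0.96 log2 in gonad and -0.41 in heart.

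Pdlim7 (enigma) read 7.15, 7.13 and 6.45 on the gonad arrays, 4.05, 6.35 and 6.10 on heart and 4.24 and 5.55 on kidney. On liver it stood at 7.46, 6.75 and 7.54, on lung at 7.09 and 6.88, on skin at 6.97 and 7.23 and on tail at 6.07, 6.03 and 6.17. The cysteine-rich LIM protein Csrp1 read 9.22, 9.26 and 8.86 on the gonad arrays, 6.12, 8.77 and 8.68 on heart and 5.95 and 6.67 on kidney. The liver arrays had 9.10, 8.95 and 9.10, those of lung 9.04 and 9.21, of skin 8.77 and 8.91 and of tail 8.41, 8.16 and 8.52. Neither was called outside kidney, and their ranges over the 13 arrays were 1.46 and 0.85 log2. Csrp2, a LIM protein of smooth muscle, ranged from 2.94 to 6.92, had a heart difference of 0.24 ± 0.46 log2 and did not pass the F test (adjusted p = 0.0574).

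Myosin phosphatase has a targeting subunit, Ppp1r12a, and an inhibitor, Ppp1r14a (CPI-17). Ppp1r12a read 4.98, 5.09 and 5.19 on the gonad arrays, 1.85, 4.04 and 3.86 on heart and 1.85 and 2.55 on kidney. For liver the levels were 4.67, 4.58 and 4.80, for lung 4.59 and 4.83, for skin 4.40 and 4.59 and for tail 4.46, 4.0 and 4.09. The gonad arrays were highest, and it was called in kidney alone. Ppp1r14a read 3.96, 4.12 and 3.71 on the gonad arrays, 2.28, 4.18 and 4.13 on heart and 1.06 and 1.24 on kidney. Levels in liver were 2.24, 2.64 and 4.06, in lung 2.43 and 2.88, in skin 3.31 and 2.81 and in tail 0.48, 0.26 and 0.69. The tail arrays were lowest, and tail differed by -2.41 ± 0.41 log2 (SE, 5.30-fold, adjusted p = 0.0024) or -2.79 ± 0.39 (adjusted p = 0.00117) on the 13 arrays. Without the high-background arrays the gene was higher in heart (1.49 ± 0.39 log2, adjusted p = 0.0357) and in gonad (1.35 ± 0.39 log2, adjusted p = 0.0307).

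Calsequestrin Casq2, the calcium store of the cardiac sarcoplasmic reticulum, had the largest gonad difference of the 37. It read 3.32, 2.81 and 1.79 on the gonad arrays, -1.52, -2.79 and -3.99 on heart and -0.98 and -2.23 on kidney. Its liver levels were -3.15, -3.10 and 0.18, its lung levels -4.64 and -5.81, its skin levels -2.49 and -3.00 and its tail levels -4.78, -1.46 and -4.17. The gonad arrays were above every other array, liver 3 was next, and lung 3 was lowest. Gonad differed by 5.61 ± 0.78 log2 (SE, 48.9-fold, adjusted p = 0.00105) or 6.64 ± 0.79 (adjusted p = 0.000829) on the 13 arrays. Casq2 was called against each of the other 6 organs in pairs. Its probe was above background on 1 of 2 lung arrays and 2 of 3 tail arrays, so the fold rests in part on undetected values. In heart the difference was -0.69 ± 0.78 log2 and was not called.

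Kcnmb1, the beta subunit that tunes the large potassium channel of smooth muscle to calcium, read -0.86, 0.83 and -0.46 on the gonad arrays, -5.11, -3.43 and -3.36 on heart and -2.99 and -2.96 on kidney. Liver gave -1.36, -1.56 and -0.52, lung -1.13 and -1.37, skin -0.75 and -2.77 and tail -7.34, -4.38 and -4.60. The tail probe was not above background on any of the 3 arrays. The tail difference was -3.56 ± 0.61 log2 (SE, at least 7.21-fold, adjusted p = 0.00248) or -4.46 ± 0.73 (adjusted p = 0.00274) on the 13 arrays. The gonad difference was 2.59 ± 0.61 log2 (SE, at least 5.55-fold, adjusted p = 0.0353) or 2.69 ± 0.73 (adjusted p = 0.0255) on the 13 arrays. The call ended without gonad 1, gonad 2, kidney 1, kidney 2, liver 1, liver 2, lung 1, lung 3 or skin 2 (adjusted p = 0.0527 to 0.325), with the slide as a block (0.0707) and without both kidney arrays (0.0623).

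The regulators did not share 1 pattern. Myocd, the coactivator myocardin, read -2.04, -0.73 and -2.23 on the gonad arrays, -2.73, -3.59 and -3.80 on heart and -1.82 and -2.39 on kidney. On liver it stood at -2.40, -4.23 and -3.29, on lung at -3.55 and -2.78, on skin at -2.19 and -2.73 and on tail at -4.04, -3.11 and -1.25. Gonad 2 and tail 3 were highest and the organs overlapped; it did not pass the F test (adjusted p = 0.228) and was called in none of the 7 organs and none of the 21 pairs of organs, with gonad minus heart at 1.71 ± 0.68 log2 (adjusted p = 0.275) or 2.31 ± 0.89 (adjusted p = 0.115) on the 13 arrays. Srf, the factor that binds CArG boxes, read 3.93, 3.90 and 2.59 on the gonad arrays, 0.84, 3.32 and 2.78 on heart and 0.63 and 1.71 on kidney. The liver arrays had 3.79, 3.39 and 3.96, those of lung 3.74 and 3.77, of skin 3.77 and 4.04 and of tail 3.45, 3.59 and 3.54. Its lowest arrays were kidney 1, heart 1 and kidney 2, and it was called in kidney alone, with a gonad minus heart difference of 1.16 ± 0.57 log2 (adjusted p = 0.46) or 0.87 ± 0.24 (adjusted p = 0.0384) on the 13 arrays.

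Prdm6, a transcriptional repressor known from smooth muscle, read -3.10, -3.44 and -3.87 on the gonad arrays, -2.65, -2.15 and -2.13 on heart and -3.28 and -3.12 on kidney. For liver the levels were 1.21, 0.90 and 0.93, for lung 2.16 and 3.04, for skin -0.90 and -1.03 and for tail -3.00, -3.09 and -2.42. Both lung arrays were above every other array (1.09% of all genes), the liver arrays followed, and gonad 3 and gonad 2 were lowest. The lung difference was 4.56 ± 0.32 log2 (SE, 23.6-fold, adjusted p = 2.16e-05) or 4.21 ± 0.23 (adjusted p = 0.000436) on the 13 arrays. Liver differed by 2.71 ± 0.27 log2 (SE, 6.55-fold, adjusted p = 0.000298) or 2.31 ± 0.20 (adjusted p = 0.000895) on the 13 arrays. In gonad it was -2.52 ± 0.27 log2 (SE, 5.74-fold, adjusted p = 0.000154) or -2.83 ± 0.23 (adjusted p = 0.000202) on the 13 arrays. That call was lost with quantile normalization (adjusted p = 0.253). In heart it was -1.17 ± 0.27 log2 (SE, 2.25-fold, adjusted p = 0.0226) or -1.47 ± 0.23 (adjusted p = 0.00356) on the 13 arrays; it lost its call, by p or by falling under 1 log2, without heart 1, heart 2 or heart 3 (adjusted p = 0.0223 to 0.0694), with quantile normalization (0.6) and with normexp and quantile normalization (0.069). In tail it was -1.78 ± 0.27 log2 (SE, 3.44-fold, adjusted p = 0.000853) or -2.16 ± 0.23 (adjusted p = 0.000343) on the 13 arrays. This call did not hold with quantile normalization (adjusted p = 0.163). Gonad thus combined high Actg2, Cnn1, Myh11 and Mylk with low Prdm6, whereas liver had all 5 high. Low Prdm6 was not particular to gonad, with organ means of -3.47 in gonad, -3.20 in kidney, -2.84 in tail and -2.31 in heart. Over the 18 arrays it was not called lower in gonad than in heart, kidney or tail.

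**Figure D4:**
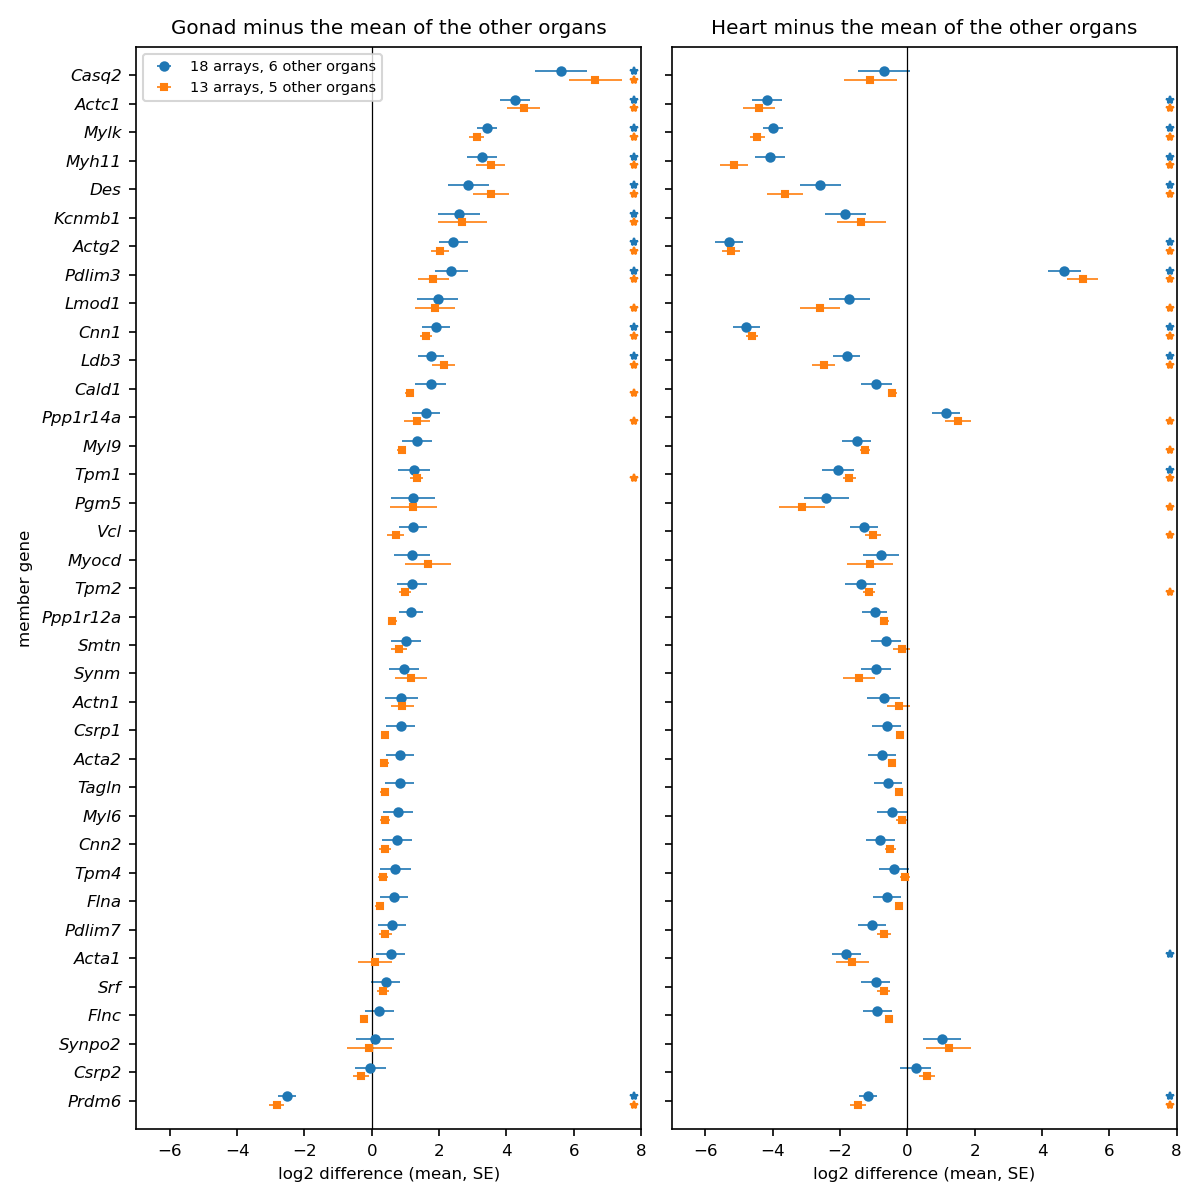
Difference of gonad (left) and heart (right) from the mean of the other organs for each member, in log2 units with its SE, over all 18 arrays (blue circles) and over the 13 arrays without high background (orange squares); stars at the right edge mark called differences in the same colour. Among the blue circles Casq2, Actc1 and Mylk lie furthest right in gonad, and Actg2, Cnn1, Actc1, Myh11 and Mylk lie furthest left in heart, where Pdlim3 is the member furthest right.

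Gonad and heart were also set against each other directly, a pair picked with the gap already known. Of 37 members 16 were higher in gonad and 0 lower by limma (27 and 2 at an unadjusted p under 0.05), against 2.95% and 1.32% of all genes; without the high-background arrays 18 were higher and 2, Pdlim3 and Prdm6, lower, against 5.43% and 7.45%. For Actc1, which was not above background in heart, gonad was at least 36.1-fold higher, with a fitted difference of 7.23 ± 0.59 log2 (adjusted p = 1.1e-05) or 7.43 ± 0.63 (adjusted p = 0.000123) on the 13 arrays that is no bound. For Actg2 it was 6.62 ± 0.55 log2 (adjusted p = 1.26e-05) or 6.06 ± 0.33 (adjusted p = 2.16e-05) on the 13 arrays. For Mylk it was 6.38 ± 0.38 log2 (adjusted p = 1.16e-06) or 6.31 ± 0.29 (adjusted p = 7.96e-06) on the 13 arrays. For Myh11 it was 6.32 ± 0.57 log2 (adjusted p = 1.95e-05) or 7.23 ± 0.55 (adjusted p = 8.18e-05) on the 13 arrays. The 16 also held Cnn1, Des, Casq2, Ldb3, Kcnmb1, Lmod1, Tpm1, Myl9, Cald1, Tpm2, Vcl and Ppp1r12a. Without gonad 1, 9 of the 16 kept the call, which Lmod1, Tpm1, Myl9, Cald1, Tpm2, Vcl and Ppp1r12a lost, and without gonad 2, 8 did, with Kcnmb1 lost too. With the slide as a block Cald1, Tpm2, Vcl and Ppp1r12a were not called (limma, adjusted p = 0.0528 to 0.0658), nor were they without any 1 of the lung, skin or tail arrays. Cald1, Tpm2 and Ppp1r12a were also lost without any 1 of the liver arrays, Cald1 and Ppp1r12a without gonad 3, and Ppp1r12a without either kidney array. Lmod1, whose probe was above background in heart on heart 1 alone, was lost without heart 2, heart 3, gonad 3 or either skin array (limma, adjusted p = 0.0501 to 0.128). Without heart 1 all 16 were called again, within 18 higher and 2 lower, with no share of all genes given for that fit.

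The 3 slides each carried gonad and heart, so the gap could be read within a slide. Slide 2 paired gonad 2 with the high-background array heart 1, and slide 3 the high-background array gonad 3 with heart 3. Only on slide 1 was neither array a high-background one. Gonad minus heart on slides 1, 2 and 3 was 6.12, 8.23 and 5.52 log2 for Actg2. It was 5.13, 7.24 and 4.81 for Cnn1 and 6.41, 5.57 and 6.99 for Myh11. For Mylk it was 6.28, 7.24 and 5.62. For Acta2 gonad minus heart was 0.62, 3.07 and 0.42, with the large value on slide 2, which carried heart 1. Against the other organs of a slide, all 11 members called in gonad kept their sign on each of the 3 slides. Of the 11 called in heart 11, 11 and 10 did. These members were called on the same arrays, so this agreement was largely fixed in advance and is no separate support. With the slide as a block, 9 members were higher and 1 lower in gonad, and 1 was higher and 11 were lower in heart. Shares of all genes are not given here for that fit.

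Liver and lung were the pair with no member called by limma in either direction, where 0.0101% and 0.0254% of all genes were called; at an unadjusted p under 0.05 there were 1 higher and 2 lower, namely Casq2 (3.20 ± 1.12 log2), Actc1 (-2.05 ± 0.66) and Prdm6 (-1.58 ± 0.38), and without the 5 arrays 0 members were called. That count does not show that the organs are alike. Gonad differed from liver in 3 members, Actc1 and Casq2 (higher) and Prdm6 (lower), and from lung in the same 3 (0.862% and 1.01% of all genes in either direction). Heart differed from liver in 12 members, 1 higher and 11 lower (1.07% and 2.67% of all genes), and from lung in 9, 1 higher and 8 lower (0.735% and 1.82%). Skin and tail differed in 3, all higher in skin (1.18%): Ppp1r14a, Kcnmb1 and Prdm6.

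The members were divided by their range into a wide and a narrow group, a division made after their values were seen and therefore given without a test. On the 13 arrays 16 members kept within 2 log2 (Acta2, Cnn2, Tagln, Myl6, Myl9, Smtn, Cald1, Tpm4, Vcl, Flna, Flnc, Srf, Ppp1r12a, Pdlim7, Csrp1 and Csrp2), 13 spanned at least 4, and 8 lay between. Of these 16 members 12 passed the F test among 6 organs on the 13 arrays, where 47.1% of all genes did. They were picked by their range on these same arrays, so nothing is read from that count. All 16 had their lowest value on kidney 1 (13 members) or heart 1 (3 members). On heart 1, kidney 1 and kidney 2 the median of the 16 was 2.78, 3.17 and 2.08 log2 below their mean over the 13 arrays. The 1361 genes with a mean level of at least 5 over the 13 arrays were lower on the same arrays, with medians of 2.34, 3.03 and 2.17 log2 below. On gonad 3 and tail 2, the other high-background arrays, the 16 were at -0.19 and -0.60 and the bright genes at -0.73 and -0.45. The part of the high background in the low values of these 16 members was not tested.

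**Figure D5:**
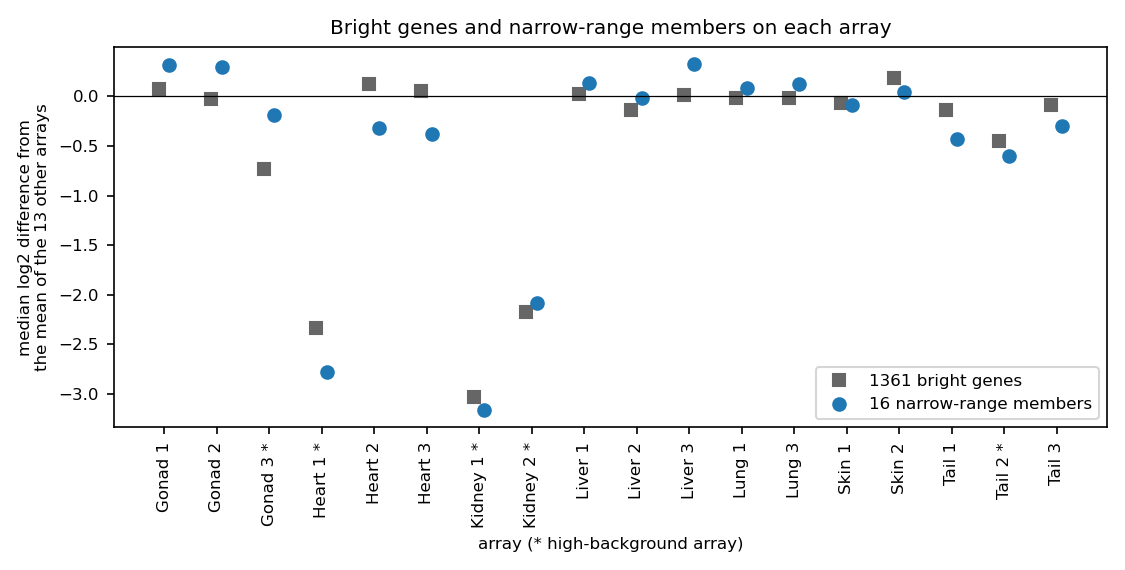
Median log2 difference from the mean of the 13 other arrays (vertical axis) on each array (horizontal axis, high-background arrays starred) for the 1361 genes with a mean level of at least 5 (grey squares) and for the 16 members with a range under 2 log2 (blue circles). Both lie 2.08 to 3.17 log2 below 0 on heart 1, kidney 1 and kidney 2 and between -0.73 and 0.32 elsewhere.

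Further genes of the same pathways, with the markers of other cell types, were counted from lists set by name. Over all genes, 2.94% were called in gonad and 3.76% in heart in either direction. Of 20 cofactors and relatives of Srf, myocardin and Yap, Fhl2 was higher (1.71 ± 0.43 log2) and Foxf1 lower (-2.52 ± 0.57 log2) in gonad and 0 were called in heart by limma, 2 at an unadjusted p under 0.05. Of 17 focal adhesion genes, Tes (-4.46 ± 0.48 log2), Itga5 (-2.16 ± 0.43 log2) and Lims2 (-1.86 ± 0.42 log2) were lower in heart. Of 18 smooth muscle channel and signalling genes, Mrvi1, a target of cGMP signalling, was higher in gonad (2.64 ± 0.39 log2). In heart the subunits of soluble guanylate cyclase, Gucy1a1 (3.46 ± 0.44 log2) and Gucy1b1 (2.74 ± 0.45 log2), were higher, and Agtr1a, the angiotensin receptor, was lower (-2.75 ± 0.48 log2).

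Markers of some other cell types also differed in gonad or heart, and their part in the members' differences was not tested. Of 14 endothelial markers 6 were higher in gonad (the 4 largest were Cdh5, Robo4, Emcn and Plvap, at 3.65 to 4.14 log2), and in heart 3 were lower and 1 higher. The mean level of the list per array was 0.12 to 2.12 in gonad, -1.72 to -0.89 in heart (-1.72 to -1.28 on the 13 arrays) and 1.65 to 3.18 in liver. It was -1.43 to 0.13 in lung, -1.40 to -0.42 in skin and -2.37 to -1.72 in tail. Of 9 mesothelial markers 3 were higher in gonad (Wt1, Gpm6a and Rspo1, at 2.67 to 4.45 log2) and 5 lower in heart, with list means of 0.59 to 1.56 in gonad, -3.43 to -2.22 in heart, 0.70 to 3.10 in liver, 1.87 to 2.87 in lung, -3.37 to -3.27 in skin and -4.22 to -3.16 in tail, and Gpm6a below background on all heart arrays. On the 13 arrays the mesothelial means were 0.77 to 1.56 in gonad, -3.43 to -3.31 in heart and -4.22 to -3.84 in tail. Of 14 steroidogenic and supporting cell markers of the gonad 7 were higher in gonad, led by Nr5a1 (5.53 ± 0.41 log2) and Gata4 (5.15 ± 0.48 log2), and Gata4 was also higher in heart (4.22 ± 0.48 log2). Of 13 pericyte and mural markers, Cspg4 was higher in gonad (2.46 ± 0.34 log2) and lower in heart (-4.03 ± 0.34 log2) and Anpep lower in gonad (-1.54 ± 0.35 log2). Of 15 cardiomyocyte markers 1, Myl4 (1.80 ± 0.40 log2), was higher in heart, with list means of -3.40 to -0.58 there and -2.84 to -0.98 in gonad. On the 13 arrays these means were -3.40 to -2.72 in heart and -2.84 to -2.22 in gonad, so the upper ends are those of high-background arrays. Of 17 skeletal muscle markers 0 were called by limma in gonad or heart (1 and 1 at an unadjusted p under 0.05), and their list means were -4.87 to -2.63 and -4.29 to -2.07 (-4.87 to -4.79 and -4.29 to -4.24 on the 13 arrays). Of 14 epithelial markers 3 were lower in heart (Krt18, Krt8 and Cldn7), and of 12 macrophage markers 1, Cd14. Of the 15 fibroblast markers Lum was lower in gonad (-2.92 ± 0.68 log2) and higher in heart (4.28 ± 0.68 log2).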

How the data were processed

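The deposited files are the scanner output of 18 one-colour Agilent arrays, with intensity values that the submitters extracted with Agilent Feature Extraction 11.0.1.1 per the submitters' processing notes, and with other columns of spot flags that are deposited beside them. A deposited value table equals the raw median intensity on all 62976 spots of these arrays; lung replicate 2, which it also holds, entered as an alternative only. Arrays have no read depth, and their number limits the precision. On 5 of them the background is high, and no spot was saturated.

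Processed signals were scaled to each array's 75th percentile and taken to log2, with 4493 outlier spots set missing. The brightest probe per gene with at least 2 usable arrays in each organ stood for the gene. Genes well above background on under 2 arrays (463) or without a usable probe (474) were left out, leaving 19723. In limma 3.58.1 (R 4.3.3) 7 organ means were fitted, with 11 residual degrees of freedom, and p-values were adjusted by Benjamini-Hochberg over all genes in each of 7 organ contrasts and 21 pairs. The code was tested on simulated data. Values were written out for members passing the F test and for Acta2, Tagln, Cnn1, Myh11, Myocd and Srf; list genes were named only where called in gonad or heart, at most 4 per list, and the results of 1 list, and of another in gonad, are not reported here. Members and lists were chosen with earlier results of these data known. Alternatives covered scaling, background correction, probe choice, flags, filters, the slide or replicate number as a block, the value table and single arrays left out; leaving out both kidney arrays was added after seeing the data. Promoters are from RefSeq (GRCm38.p6). Figures were drawn with matplotlib 3.10.9.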

Additional observations from a re-analysis of the deposited data

How the results depend on the processing

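Outside kidney 54 called differences of single members were followed through the alternatives. They are those of the organ contrasts and the 16 of gonad against heart, a pair picked with its gap known. Calls in the other pairs of organs were not followed gene by gene. Of the 54 differences, 26 kept their call under every alternative run, and none changed sign. Over all their alternatives 204 of 1890 fits lost the call. Some of these alternatives could not lose a call. Leaving out saturated probes repeated the main fit, since no spot was saturated, and dropping the minimum difference only loosened the rule. For the 26 kidney calls 80 of 832 fits lost the call and 16 changed sign. With quantile normalization the kidney differences turned to 0.0124 for Acta2, 0.32 for Cnn1, 0.10 for Tagln, 0.57 for Smtn, 0.61 for Tpm1, 0.0112 for Flna, 0.60 for Pdlim7, 0.0663 for Csrp1 and 0.17 for Csrp2 log2, and with normexp and quantile normalization to 0.30 for Cnn1, 0.0731 for Tagln, 0.64 for Smtn, 0.74 for Tpm1, 0.57 for Pdlim7, 0.14 for Csrp1 and 0.25 for Csrp2; the cause was not tested. Counts that moved by over 1.5 times are given against 31 members passing the F test and 11 called in gonad, 11 in heart, 26 in kidney, 2 in lung, 2 in skin and 6 in tail, with 16 for gonad against heart. At an adjusted p under 0.01 the F test passed 14, and gonad had 6, heart 6, lung 1, skin 0, gonad against heart 8 and the 21 pairs together 130. With quantile normalization kidney had 9 and skin 4, with normexp and quantile normalization kidney 8, lung 5 and skin 4, and with the median of detected probes lung 4. The slide as a block gave lung 1 and skin 1. The value table gave lung 6. Without the 5 arrays lung had 5, skin 6 and tail 11, and with normexp and quantile normalization on the 13 arrays lung 6, skin 7 and tail 10. High background as a term gave gonad 19 and kidney 12. Without kidney the F test passed 14 and lung had 1. Leaving out 1 array gave 15 to 35 for the F test, 5 to 18 for gonad, 7 to 13 for heart, 2 to 28 for kidney, 4 to 10 for liver, 1 to 6 for lung, 0 to 4 for skin, 4 to 9 for tail, 8 to 20 for gonad against heart and 103 to 312 for the 21 pairs.

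With the replicate number as a block lung had 1 and skin 1, the F test 23, gonad 10, heart 11, kidney 26, liver 5, tail 5, gonad against heart 13 and the 21 pairs 213. The block ended the calls of Kcnmb1 in gonad, Actc1 in liver, Mylk in lung, Pdlim3 in skin and Myh11 in tail. Between gonad and heart it ended those of Lmod1, Cald1, Tpm2 and Ppp1r12a. Deviations of same-numbered samples had a median correlation of -0.036 over 46 pairs of samples (13 above 0.1, from -0.85 to 0.78). With 2 or 3 arrays per organ this cannot decide whether the numbers pair the samples. Dim probes near background limit Actc1 in heart and Kcnmb1 in tail to bounds. Lmod1 was not above background on heart 2 or heart 3, which limits its heart difference on the 13 arrays as well. The liver fold of Actc1 (above background on 1 of 3 liver arrays) is limited too. So is the gonad fold of Casq2 (1 of 2 lung arrays and 2 of 3 tail arrays).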
